A study of Mus musculus with 6 samples.

Results

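The 37 genes described here encode the enzymes that remove superoxide and peroxides, the thioredoxin and glutathione systems that keep protein thiols reduced, and the NRF2 and KEAP1 proteins that regulate many of them. They were chosen by gene name from the 55401 rows of the count and TPM (transcripts per 1000000) tables, and all 37 names were found. The RNA came from lymphatic endothelial cells (LECs), which form the wall of lymphatic vessels, isolated from the dura mater, the outer membrane around the brain. Male C57BL/6J mice of WT genotype had received, when young, an injection into the cisterna magna of adeno-associated virus of serotype 9 carrying either mouse VEGF-C, the main growth factor of lymphatic vessels (AAV-VEGF-C), or a control cargo (AAV-CTRL). The control virus was not empty: it carried a piece of the VEGF-C receptor VEGFR3 that lacks VEGF-C binding, fused to an immunoglobulin tail. Viable cells positive for CD31, Podoplanin and LYVE-1 and negative for the leukocyte marker CD45 were sorted from enzyme-digested dura, and each library came from the pooled meninges of 10 to 12 mice. Each group had 3 libraries, numbered by the experiment (1, 2 or 3) that they came from. In bulk RNA of this kind, fewer cells of a type and less RNA per cell cannot be told apart.

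Superoxide, a by-product of respiration and of oxidase enzymes, is turned into hydrogen peroxide by the superoxide dismutases, and the peroxide is then destroyed by catalase, by the peroxiredoxins or by the glutathione peroxidases. Most peroxiredoxins are recharged by thioredoxin, which thioredoxin reductase regenerates with electrons from NADPH. Most glutathione peroxidases are recharged by glutathione, which glutathione reductase regenerates from the same source. The transcription factor NRF2 (gene *Nfe2l2*), held back by KEAP1 until oxidants or electrophiles modify KEAP1, drives many of these genes through antioxidant response elements. Endothelial cells, which line vessels carrying blood or lymph, are known to use these systems against oxidants from flow and from nearby immune cells.

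The total counts ranged from 6530190 to 12399429 in the AAV-CTRL libraries and from 564430 to 3261814 in the AAV-VEGF-C libraries, so every AAV-VEGF-C library was shallower, and depth and treatment cannot be told apart. A floor of 3 counts corresponded to 5.32 per 1000000 in AAV-VEGF-C 1 and to between 0.242 and 0.459 per 1000000 in the AAV-CTRL libraries. In AAV-VEGF-C 1 the 37 genes together had 654 counts, 18 of them had fewer than 10 counts and 2 (*Gpx7* and *Mgst3*) had none. The LEC markers *Prox1*, *Flt4*, *Lyve1* and *Pdpn* were detected in every library, and the summed level of 8 LEC markers was 1142 to 2287 counts per 1000000 (CPM, scaled between libraries by TMM factors) in AAV-CTRL and 655 to 3864 CPM in AAV-VEGF-C. Libraries 1 of both groups stood apart from the others in their macrophage markers, whose summed level was 110 and 118 CPM there and 2236 to 5983 CPM in the other 4 libraries. Over all tested genes, fitted fold changes were mostly positive in genes near the floor and mostly negative in well-expressed genes, so a well-expressed list is set here beside well-expressed genes (a mean of 5 TPM or more).

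**Figure D1:**
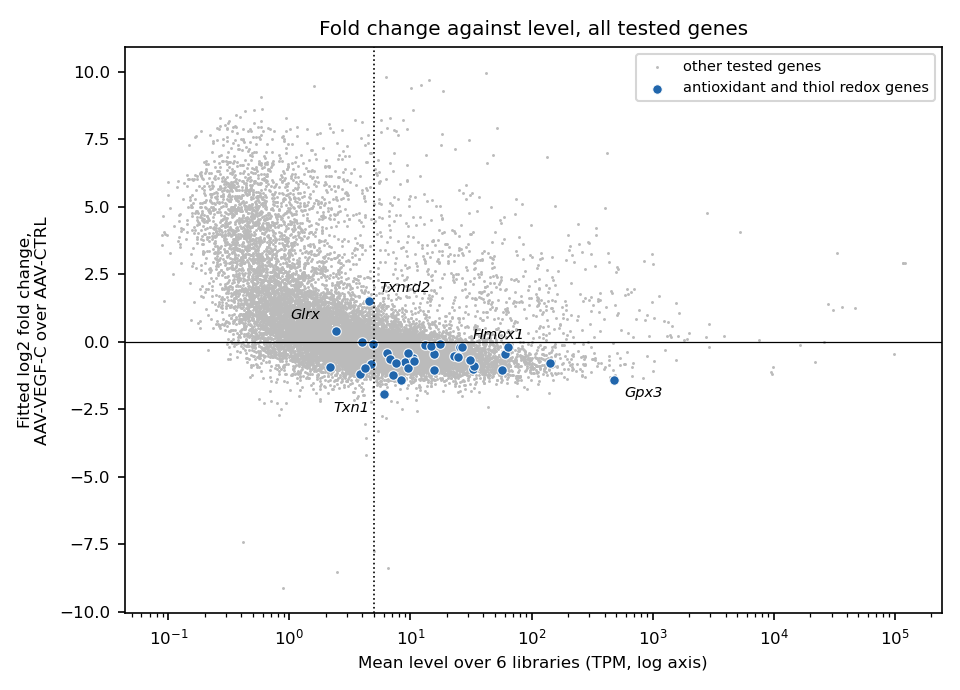
Fitted log2 fold change of AAV-VEGF-C over AAV-CTRL (vertical axis) against the mean level over 6 libraries in TPM (horizontal log axis) for the 17459 tested genes (grey) and the 36 tested antioxidant and thiol redox genes (blue), with the dotted line at a TPM of 5. The blue points right of the line all lie below 0, in the part of the plot where 76.0% of all tested genes lie below 0.

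The most direct reading of the list is that 1 gene, thioredoxin 1 (*Txn1*), fell and that none rose past the threshold. A total of 36 of the 37 genes had enough counts to be tested by edgeR's quasi-likelihood test, and *Mgst3* did not. *Txn1* was the 1 gene called lower among the 36, where 0.659% of all tested genes and 1.45% of those at a mean of 5 TPM or more were called lower. Of the 36, 0 were called higher, beside 10.5% of all tested genes. That share includes the genes near the floor, where fitted fold changes were mostly positive. The share called higher at a mean of 5 TPM or more was not computed. At an unadjusted p under 0.05, 9 of the 36 were lower and 1, *Txnrd2*, was higher.

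Beyond the calls, the genes lay mostly on the lower side in AAV-VEGF-C. The fitted log2 fold change was below 0 in 33 of the 36 tested genes (50.2% of all tested genes) and in each of the 28 at a mean of 5 TPM or more (76.0% of all such genes). In CPM, 16 of 36 were lower in AAV-VEGF-C than in AAV-CTRL with no overlap between libraries (17.6% of all tested genes), and 14 of the 28 well-expressed genes were (33.3%). *Txnrd2* was the 1 gene of 36 that was higher without overlap (22.3% of all tested genes, those near the floor included). Within experiments, 23 of the 28 were lower in AAV-VEGF-C in each of the 3 (49.7%). The median log2 fold change was -0.64 over the 36 tested genes, beside -0.41 over all tested genes at a mean of 5 TPM or more and -0.0037 over all tested genes. On the TPM scale 22 of the 28 did not overlap, where 61.4% of all such genes were lower without overlap.

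**Figure D2:**
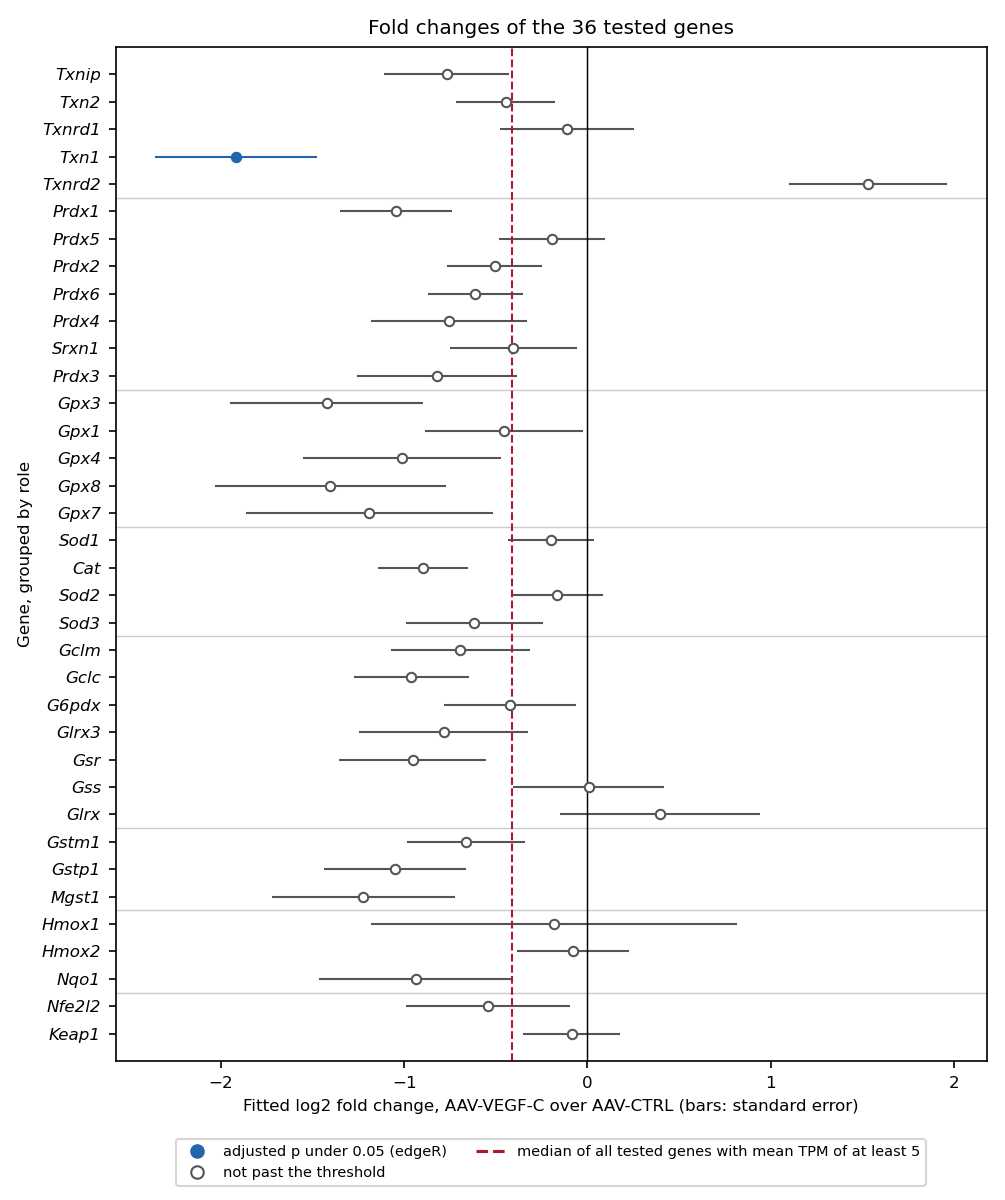
Fitted log2 fold change of AAV-VEGF-C over AAV-CTRL for the 36 tested genes, grouped by role, with bars of 1 standard error from edgeR (3 libraries a group). The filled point is *Txn1* at -1.92, and the dashed line marks the median of all tested genes at a mean of 5 TPM or more, at -0.41.

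The same counts were read in 2 other fits. With the experiment number as a replicate block, 2 genes were called lower, *Txn1* and *Prdx1* (background 2.07%), and 0 higher (background 12.8%). DESeq2 called 4 lower, *Txn1*, *Cat*, *Gpx3* and *Prdx1* (background 1.12%), and 1 higher, *Txnrd2* (background 12.7%). The DESeq2 backgrounds are over 44552 genes, without the edgeR filter, whose median log2 fold change was 2.285. The backgrounds of both fits include genes near the floor, so they are not matched in level to the members. Exons of *Txnip*, *Prdx2*, *Prdx5*, *Gclm*, *Gss*, *G6pdx*, *Hmox2* and *Keap1* overlap a gene on the opposite strand, the use of strand in counting is not given in the sources used here, and 8 members (*Txn1*, *Prdx1*, *Prdx2*, *Gpx4*, *Sod1*, *Gstm1*, *Gstp1* and *Glrx3*) have near-identical copies elsewhere, so their counts are less certain.

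Levels between genes were compared in TPM, which corrects for length. Summed over the 37 genes, the level was 1587, 1419 and 2626 TPM in AAV-CTRL 1, 2 and 3 against 207, 564 and 780 TPM in AAV-VEGF-C 1, 2 and 3. On the TPM scale 61.4% of all tested genes at a mean of 5 TPM or more were lower without overlap, so the gap is not particular to these genes. In CPM the sums lay closer, at 4382, 3175 and 4107 CPM in AAV-CTRL against 1511, 2299 and 2294 CPM in AAV-VEGF-C. *Gpx3*, the secreted glutathione peroxidase, held the highest mean level in the AAV-CTRL libraries at 801 ± 473 TPM (SD, n = 3), and without it the sums were 744, 1111 and 1375 TPM. *Txnip* followed at 210 ± 74.4 TPM, and its highest AAV-CTRL library (294 TPM) lay below the lowest for *Gpx3* (308 TPM). *Sod1* (93.6 ± 35.9 TPM), *Prdx1* (91.7 ± 33.5 TPM), *Gpx1* (86.3 ± 39.0 TPM), *Cat* (54.6 ± 17.0 TPM) and *Gpx4* (53.3 ± 32.8 TPM) came next, with ranges over libraries that overlapped each other. In the AAV-VEGF-C libraries *Gpx3* (154 ± 108 TPM) and *Txnip* (73.2 ± 31.6 TPM) were again the highest by mean, but their ranges overlapped. The lowest was *Mgst3*, at 1.58 ± 1.34 TPM in AAV-CTRL and 0.309 ± 0.274 TPM in AAV-VEGF-C, with 6, 14 and 46 counts in AAV-CTRL against 0, 2 and 3 in AAV-VEGF-C.

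**Figure D3:**
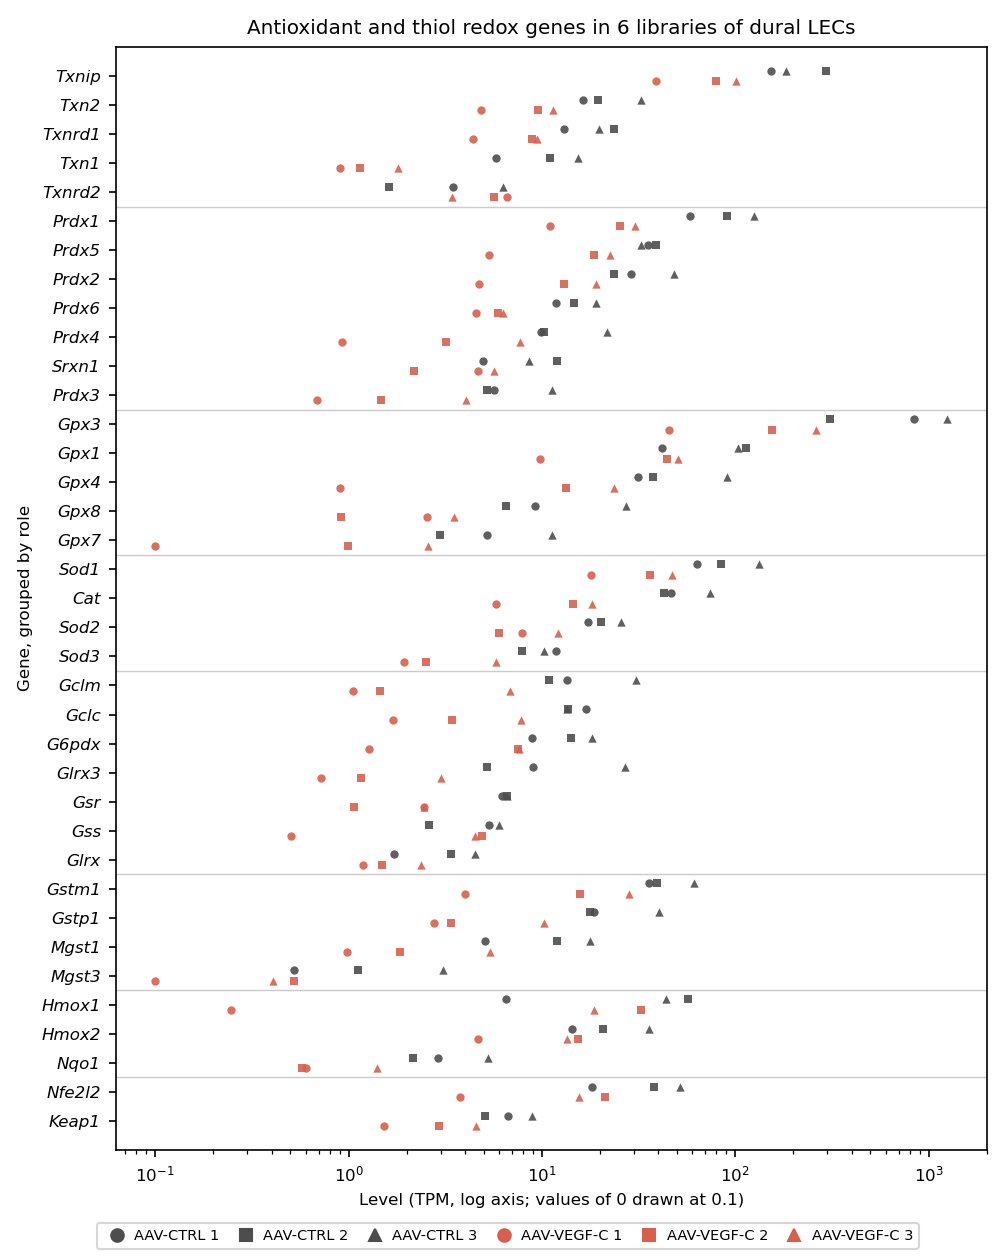
Level in TPM (horizontal log axis) of each of the 37 genes in each library, grouped by role and ordered within a role by the mean of the AAV-CTRL libraries, with values of 0 drawn at 0.1. *Gpx3* spans 45.6 to 1251 TPM, and of the 5 thioredoxin system genes only *Txnrd2* has groups that overlap on this scale.

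The thioredoxin system was the role in which the members parted most. *Txn1*, the cytosolic thioredoxin, had 59, 123 and 207 counts in AAV-CTRL 1, 2 and 3 against 2, 4 and 12 counts in AAV-VEGF-C 1, 2 and 3. Scaled, these were 9.47, 15.6 and 14.0 CPM against 4.62, 2.87 and 3.45 CPM. Every AAV-VEGF-C library lay below every AAV-CTRL library, although AAV-VEGF-C 1 was under the floor of 3 counts. As unscaled shares, the highest upper bound of the 95% Wilson intervals in AAV-VEGF-C 2 and 3 was 7.17 per 1000000, the bound in AAV-VEGF-C 1 was 12.9, and the lower bounds in AAV-CTRL were 7.01, 13.1 and 14.6. These intervals cover counting error only. The fitted log2 fold change was -1.92 (SE 0.44, edgeR adjusted p = 0.0327), with adjusted p = 0.0398 under the replicate block and 0.0184 by DESeq2. The call was lost without AAV-CTRL 2 (adjusted p = 0.0971), AAV-CTRL 3 (0.0716), AAV-VEGF-C 1 (0.0501), AAV-VEGF-C 2 (0.0861) or AAV-VEGF-C 3 (0.113), and the fold change stayed between -2.15 and -1.81 when any library was left out. It was also lost when only genes at a mean of 5 TPM or more were tested (-1.58, adjusted p = 0.304) and when libraries were scaled by the 2000 most abundant genes (-1.46, adjusted p = 0.0792). Over the whole table, 0 genes were called lower without AAV-CTRL 2, AAV-CTRL 3 or AAV-VEGF-C 2, or with that 5 TPM filter. The losses under those settings are therefore not particular to *Txn1*. When libraries were drawn down to the smallest total, *Txn1* had too few counts to be tested, so its fall was not seen at matched depth. *Txn1* was called in 11 of the 19 alternative fits that tested it. *Txn1* lies at chr4:57943373-57956411 (GRCm38, GENCODE M21, - strand), and its near-identical processed pseudogene *Txn-ps1* had at most 2 counts in any library.

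*Txnrd2*, the mitochondrial thioredoxin reductase, was the member furthest on the higher side. It had 41, 43 and 71 counts in AAV-CTRL against 11, 22 and 37 in AAV-VEGF-C, which gave 6.58, 5.47 and 4.81 CPM against 25.4, 15.8 and 10.6 CPM. The groups did not overlap in CPM, but in TPM they did, at 3.47, 1.63 and 6.33 TPM against 6.60, 5.68 and 3.41 TPM. The log2 fold change was 1.53 (SE 0.43) with an edgeR adjusted p of 0.0626, 0.0504 under the replicate block and 0.0426 by DESeq2. Without both libraries of experiment 1 it was 1.26 (adjusted p = 0.143).

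The other thioredoxin genes did not pass the test. *Txnip*, which encodes the inhibitor of thioredoxin that also restrains glucose uptake, had 478, 781 and 512 CPM in AAV-CTRL against 284, 436 and 319 CPM in AAV-VEGF-C. Its groups did not overlap, and the log2 fold change was -0.77 (SE 0.34, edgeR adjusted p = 0.190). Part of its exons, 606 bases, is shared with the antisense gene *Gm15441*. *Txn2*, the mitochondrial thioredoxin, and *Txnrd1*, the cytosolic reductase, had log2 fold changes of -0.45 (SE 0.27) and -0.11 (SE 0.37). Differences between these genes were not tested.

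The peroxiredoxins are peroxide-destroying enzymes, most of which thioredoxin recharges. All 7 genes of this role, with the sulfiredoxin gene *Srxn1* included, had a fitted log2 fold change below 0, with a median of -0.61 and a range from -1.05 to -0.19, and 4 of them (*Prdx1*, *Prdx2*, *Prdx4* and *Prdx6*) were lower without overlap in CPM. Of all tested genes, 50.2% were below 0 and 17.6% were lower without overlap, and of those at a mean of 5 TPM or more 76.0% and 33.3% were. *Prdx1*, the most abundant of them and cytosolic, had 58.6, 81.5 and 84.3 CPM in AAV-CTRL against 25.4, 41.6 and 39.7 CPM in AAV-VEGF-C. It was about as much lower in each of the 3 experiments. Its log2 fold change was -1.05 (SE 0.30), with an edgeR adjusted p of 0.0685, beside 0.0327 under the replicate block, 0.0353 by DESeq2 and 0.0482 without experiment 1. *Prdx1* was called in 6 of 20 alternative fits, and its edgeR adjusted p reached 0.508 when libraries were drawn down to the smallest total. The pseudogene copies *Gm21399* and *Gm7204*, at 98.3% and 97.5% identity, had at most 21 and 4 counts in any library.

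*Prdx5*, the peroxiredoxin found in mitochondria, peroxisomes and cytosol, had 40.6, 41.5 and 34.9 CPM in AAV-CTRL against 23.1, 40.1 and 36.8 CPM in AAV-VEGF-C. Only AAV-VEGF-C 1, with 10 counts, lay below the AAV-CTRL range, and the log2 fold change was -0.19 (SE 0.29, edgeR adjusted p = 0.713). It shares 409 exonic bases with *Trmt112* on the opposite strand. *Prdx3* (mitochondrial) and *Prdx4* (endoplasmic reticulum) had log2 fold changes of -0.82 (SE 0.44) and -0.75 (SE 0.42), and *Srxn1*, which repairs over-oxidised peroxiredoxins, had -0.40 (SE 0.35).

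The glutathione peroxidases had the lowest median log2 fold change of the roles with more than 3 tested genes, at -1.19 over 5 genes, and none passed the edgeR test. *Gpx3* had 2572, 811 and 2120 CPM in AAV-CTRL against 439, 692 and 918 CPM in AAV-VEGF-C. The groups overlapped only because AAV-CTRL 2 (811 CPM) lay below AAV-VEGF-C 3 (918 CPM), and within experiments AAV-VEGF-C was lower in all 3, by much the least in experiment 2. The log2 fold change was -1.42 (SE 0.53, edgeR adjusted p = 0.127), with adjusted p = 0.101 under the replicate block and 0.0263 by DESeq2, and it was -0.93 (adjusted p = 0.305) without experiment 1.

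*Gpx8* and *Gpx7*, peroxidases of the endoplasmic reticulum that help oxidative protein folding, were low and shallowly covered. *Gpx8* had 88, 68 and 350 counts in AAV-CTRL against 5, 3 and 22 in AAV-VEGF-C, or 14.1, 8.65 and 23.7 CPM against 11.6, 2.15 and 6.33 CPM. Its groups overlapped through AAV-VEGF-C 1, and its log2 fold change was -1.40 (SE 0.63, edgeR adjusted p = 0.195). *Gpx7* had 69, 49 and 206 counts against 0, 5 and 25, and its log2 fold change was -1.19 (SE 0.67, adjusted p = 0.290).

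*Gpx4*, the peroxidase that repairs oxidised membrane lipids and guards against ferroptosis, had 42.4, 43.5 and 65.7 CPM in AAV-CTRL against 4.62, 28.0 and 36.8 CPM in AAV-VEGF-C. The groups did not overlap, but AAV-VEGF-C 1 held only 2 counts, and the log2 fold change was -1.01 (SE 0.54, edgeR adjusted p = 0.263). The pseudogene *Gpx4-ps2*, 99.7% identical over 733 bases, had 143, 191 and 191 counts in AAV-CTRL against 10, 12 and 63 in AAV-VEGF-C. *Gpx4* itself had 264, 342 and 970 against 2, 39 and 128 counts, so the division of reads between the 2 is uncertain, most of all in AAV-VEGF-C 1. *Gpx1*, the ubiquitous cytosolic enzyme, had 61.3, 165 and 97.7 CPM against 48.5, 98.2 and 86.8 CPM. Its groups overlapped, and its log2 fold change was -0.45 (SE 0.43, adjusted p = 0.534).

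Markers of fibroblasts, of blood endothelium and of smooth muscle and pericytes, cell types that the dura also holds, lay on the lower side together with the glutathione peroxidases and most other members. The 8 fibroblast markers summed to 21853, 9015 and 9822 CPM in AAV-CTRL against 7811, 5976 and 10209 CPM in AAV-VEGF-C, 1 was at 0 in AAV-VEGF-C 1 and none in every library, and 7 of the 7 tested were on the lower side (median log2 fold change -1.16), with *Dcn* and *Ogn* called lower. *Dcn* was at 397, 175 and 370 CPM against 94.7, 89.6 and 108 CPM. In CPM the fibroblast sum and *Gpx3* were both highest in AAV-CTRL 1. In TPM *Gpx3* was highest in AAV-CTRL 3 (1251 against 844 TPM in AAV-CTRL 1), and the fibroblast sum was not computed in TPM. AAV-CTRL 2 and 3 had fibroblast sums of 9015 and 9822 CPM and *Gpx3* at 811 and 2120 CPM. The largest parts of these sums, *Col1a1* (4544 and 4405 CPM) and *Col1a2* (3119 and 3166 CPM), were near in the 2 libraries. The other fibroblast markers were all higher in AAV-CTRL 3, among them *Ogn* (99.5 and 190 CPM) and *Col3a1* (897 and 1354 CPM). The 8 blood endothelial markers summed to 490, 1621 and 3417 CPM in AAV-CTRL against 839, 1177 and 675 CPM in AAV-VEGF-C, so in experiment 1 AAV-VEGF-C was higher. All 8 had a fitted log2 fold change below 0 (median -1.18). The 6 markers of smooth muscle and pericytes summed to between 539 and 920 CPM against between 254 and 521 CPM, and all 6 were below 0 (median -0.84). None of these genes passed the edgeR test, 1 blood endothelial marker was at 0 in AAV-VEGF-C 1, and none was at 0 in every library. Of all tested genes, 50.2% were below 0 and 0.659% were called lower. Of those at a mean of 5 TPM or more, 76.0% were below 0 and 1.45% were called lower. Other lists went the other way. Of the 8 LEC markers 3 were below 0 (median 0.18), and of 6 Schwann cell markers 1 was (median 1.76). Among the Schwann cell markers 3 were called higher and 1 lower, beside 10.5% and 0.659% of all tested genes. The part of these cell types in the values of the members was not tested.

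The superoxide dismutases and catalase, which act in sequence on superoxide and peroxide, all had fitted log2 fold changes below 0, with the largest for catalase. *Cat* had 159, 136 and 148 CPM in AAV-CTRL against 76.3, 85.3 and 76.2 CPM in AAV-VEGF-C, a gap far wider than the spread within either group. Its log2 fold change was -0.90 (SE 0.24) with an edgeR adjusted p of 0.0547, just above the threshold, 0.0551 under the replicate block, and 0.0145 by DESeq2. *Cat* was called in 4 of 20 alternative fits, and its edgeR adjusted p reached 0.719 when libraries were drawn down to the smallest total. *Sod1*, the cytosolic copper and zinc enzyme, had 80.3, 86.5 and 82.3 CPM against 73.9, 70.2 and 73.3 CPM. These values were even within groups and did not overlap, yet the difference was small, at a fitted log2 change of -0.20 (SE 0.23, edgeR adjusted p = 0.631) that turned positive under 3 planned settings.

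Of the other dismutases, *Sod2*, the mitochondrial manganese enzyme, had 36.3, 44.1 and 41.6 CPM in AAV-CTRL against 39.3, 35.8 and 34.5 CPM in AAV-VEGF-C, which overlapped (log2 fold change -0.16, SE 0.25). *Sod3*, the secreted enzyme, was at 83.5, 48.3 and 42.5 CPM against 41.6, 25.8 and 46.3 CPM, also overlapping (log2 fold change -0.62, SE 0.37).

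**Figure D4:**
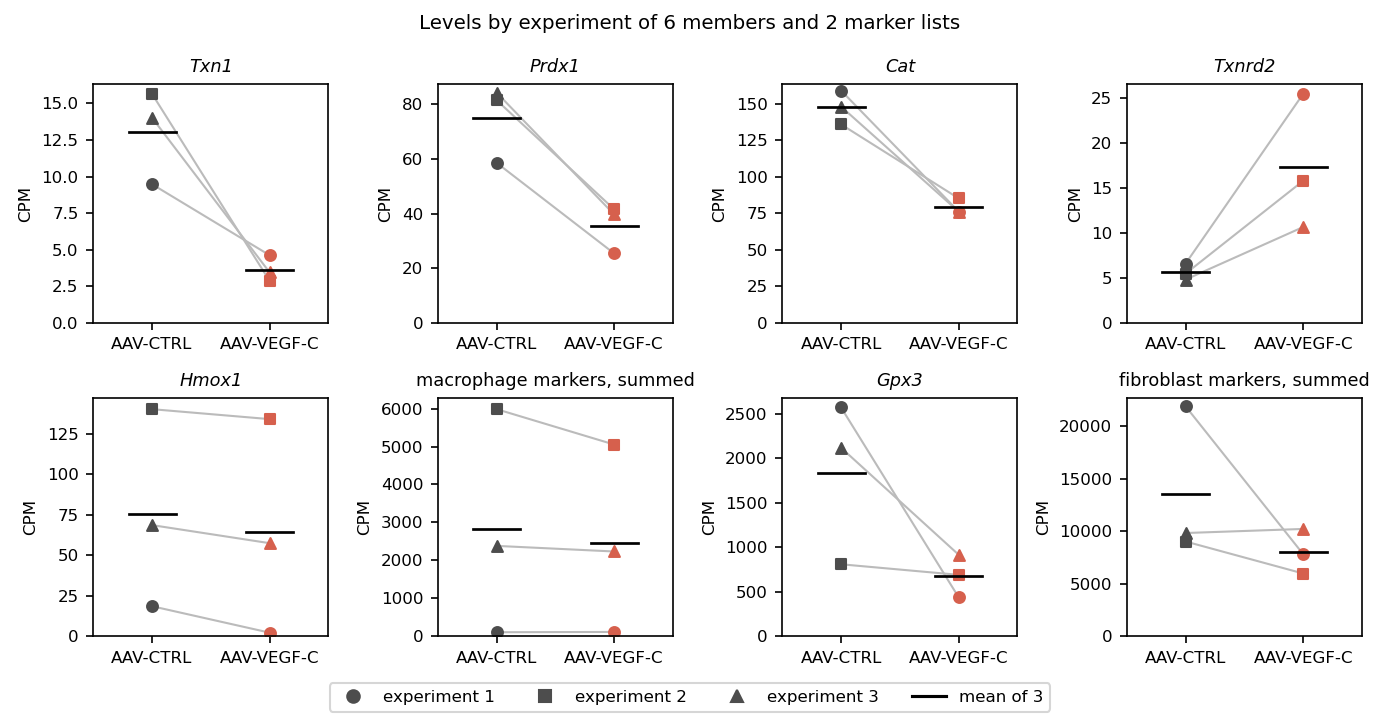
Level in CPM of 6 genes and the summed level of 2 lists of 8 marker genes in each library, with grey lines joining the libraries of an experiment and black bars at the mean of 3. *Cat* lies between 136 and 159 CPM in AAV-CTRL and between 76.2 and 85.3 CPM in AAV-VEGF-C, while *Hmox1* differs more between experiments than between groups, as the macrophage markers do.

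Among the genes of glutathione synthesis and recycling, 5 of 7 had a fitted log2 fold change below 0 and none passed the test. *Gclc*, the catalytic subunit of the enzyme that limits glutathione synthesis, had 83.0, 63.3 and 44.2 CPM in AAV-CTRL against 30.0, 30.8 and 36.2 CPM in AAV-VEGF-C, with no overlap (log2 fold change -0.96, SE 0.31, edgeR adjusted p = 0.0944). Its regulatory subunit gene *Gclm* had -0.69 (SE 0.38), with 1 overlapping library. *Gsr*, the reductase that restores glutathione, was at 32.6, 22.0 and 18.2 CPM against 16.2, 7.88 and 14.4 CPM, without overlap (-0.95, SE 0.40, adjusted p = 0.170).

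*Gss*, which adds the last amino acid of glutathione, stood at 11.6, 8.01 and 9.61 CPM in AAV-CTRL against 4.62, 10.0 and 12.4 CPM in AAV-VEGF-C. The AAV-CTRL values lay inside the AAV-VEGF-C range, and the log2 fold change was 0.0078 (SE 0.41, edgeR adjusted p = 0.995). *Glrx*, a glutaredoxin that removes glutathione from proteins, had 3.69, 7.76 and 6.03 CPM against 13.9, 5.73 and 6.04 CPM. Only AAV-VEGF-C 1, which held 6 counts, lay above the AAV-CTRL range, and the fitted change of 0.40 (SE 0.54, adjusted p = 0.681) was -0.29 without experiment 1. *G6pdx*, the NADPH-producing enzyme of the pentose phosphate pathway, had -0.42 (SE 0.36), and *Glrx3*, a glutaredoxin of iron-sulphur metabolism, had -0.78 (SE 0.46).

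The glutathione transferases couple glutathione to electrophiles. The 3 tested genes were all lower without overlap in CPM, with log2 fold changes from -1.22 to -0.66, where 17.6% of all tested genes and 33.3% of those at a mean of 5 TPM or more were lower without overlap. *Gstm1* had 83.2, 77.6 and 78.9 CPM in AAV-CTRL against 30.0, 53.0 and 65.0 CPM in AAV-VEGF-C (-0.66, SE 0.32, edgeR adjusted p = 0.221). The AAV-CTRL libraries were nearly equal, and the AAV-VEGF-C libraries varied. *Mgst1*, a membrane-bound transferase, had 43, 80 and 222 counts against 1, 6 and 20, or 6.90, 10.2 and 15.0 CPM against 2.31, 4.30 and 5.75 CPM (-1.22, SE 0.50, adjusted p = 0.159). *Gstp1* had -1.05 (SE 0.39, adjusted p = 0.126), and its copies *Gstp2* and *Gstp-ps*, 98.2% and 97.6% identical, had up to 60 and 112 counts beside 172 to 435 for *Gstp1* in AAV-CTRL, so its level is uncertain.

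*Hmox1*, the inducible haem oxygenase, which macrophages use in large amounts to recycle haem from red cells, was the member with the largest standard error. It had 18.6, 140 and 68.7 CPM in AAV-CTRL 1, 2 and 3 against 2.31, 134 and 57.5 CPM in AAV-VEGF-C 1, 2 and 3. Both libraries of experiment 1 were low and both of experiment 2 were high. The log2 fold change was -0.18 with an SE of 0.998 (edgeR adjusted p = 0.937), and with the replicate block it was -0.50 (adjusted p = 0.427). The summed level of the 8 macrophage markers took the same order over experiments, at 110, 5983 and 2384 CPM in AAV-CTRL against 118, 5052 and 2236 CPM in AAV-VEGF-C, with *Csf1r* at 16.1, 1753 and 610 CPM and 30.0, 1476 and 673 CPM. The erythroid markers summed to 10.4, 123 and 96.5 CPM in AAV-CTRL and were at 0, 12.2 and 112 CPM in AAV-VEGF-C. The part of these cells in the *Hmox1* values was not tested. *Hmox2*, the constitutive enzyme, varied far less and had a log2 fold change of -0.077 (SE 0.31), and *Nqo1*, the quinone reductase widely read as an NRF2 target, had 46, 38 and 115 counts against 2, 3 and 14 (-0.94, SE 0.53).

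*Nfe2l2*, which encodes NRF2 itself, was at 72.3, 122 and 118 CPM in AAV-CTRL against 32.4, 112 and 67.0 CPM in AAV-VEGF-C. AAV-VEGF-C 2 lay within the AAV-CTRL range, and the log2 fold change was -0.54 (SE 0.45, edgeR adjusted p = 0.472). *Keap1*, its inhibitor, was at 37.6, 29.8 and 29.9 CPM against 32.4, 27.2 and 32.2 CPM. Its groups overlapped, and its log2 fold change was -0.086 (SE 0.26, adjusted p = 0.917). NRF2 is controlled mainly at the level of its protein, which these data do not measure.

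The promoters were read because NRF2 acts through antioxidant response elements, whose core is TGACNNNGC. RefSeq windows (GRCm38.p6, from 250 bases before to 50 bases after each annotated start) were found for 32 of the 37 genes, 42 windows in all, and both strands were searched. The core was in 8 of the 42 windows (19.0%), 1 in each of 8 genes, beside 4071 of all 32851 windows (12.4%). The 8 sites are shown with 10 bases on each side, 5′ to 3′ along the strand of the gene, with the core, or its reverse complement, in capitals.
*Nfe2l2*: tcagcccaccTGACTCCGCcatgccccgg
*Srxn1*: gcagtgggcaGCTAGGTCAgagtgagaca
*Gclm*: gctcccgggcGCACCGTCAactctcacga
*Prdx1*: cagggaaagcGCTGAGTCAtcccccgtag
*Mgst1*: gcggggcttgGCACGGTCAggaggcgggg
*Txnrd1*: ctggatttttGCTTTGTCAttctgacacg
*Sod1*: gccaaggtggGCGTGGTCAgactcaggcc
*G6pdx*: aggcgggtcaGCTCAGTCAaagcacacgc

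The *Prdx1* site, at chr4:116685456-116685484, lay upstream of the gene on its + strand and was the 1 site whose capitals also held, on the opposite strand, the AP-1 motif TGACTCA. The *Srxn1* site (chr2:152105542-152105570, + strand) lay just after the annotated start, and the *Nfe2l2* site (chr2:75704885-75704913, - strand) lay near the far end of its window. The *Gclm* (chr3:122245413-122245441, + strand), *Mgst1* (chr6:138140461-138140489, + strand), *Txnrd1* (chr10:82859104-82859132, + strand), *Sod1* (chr16:90220696-90220724, + strand) and *G6pdx* (chrX:74428919-74428947, - strand) sites all lay upstream of their starts. The fitted log2 fold changes of these 8 genes ran from -1.22 (*Mgst1*) to -0.11 (*Txnrd1*), a range that lies within that of the other members. A match is a description of these letters only.

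A wider list of 100 related genes gave the members their surroundings. Of these, 95 were tested, 4 fell (0.659% of all tested genes) and 1 rose (10.5% of all tested genes). The median log2 fold change was -0.40 over all 95 and -0.56 over the 58 at a mean of 5 TPM or more. Of those 58, 3 were called lower, beside 1.45% of all tested genes at that level. The 4 that fell were *Tmx1*, a thioredoxin-like enzyme of the endoplasmic reticulum membrane (-1.61, SE 0.34, edgeR adjusted p = 0.0270), *Me1* (-1.34, SE 0.35, adjusted p = 0.0498) and *Idh1* (-1.33, SE 0.33, adjusted p = 0.0406), cytosolic enzymes that make NADPH, and *Msrb3*, a methionine sulphoxide reductase (-1.19, SE 0.30, adjusted p = 0.0412). *Idh1* had 35.3, 45.4 and 44.2 CPM in AAV-CTRL against 9.24, 18.6 and 19.3 CPM in AAV-VEGF-C, and *Tmx1* had 36.6, 27.2 and 41.7 CPM against 9.24, 9.32 and 14.7 CPM. Neither overlapped between groups. None of the 4 passed when AAV-CTRL 2, AAV-CTRL 3, AAV-VEGF-C 2 or AAV-VEGF-C 3 was left out, and 2 passed without AAV-CTRL 1 (*Tmx1* and *Idh1*) or without AAV-VEGF-C 1 (*Tmx1* and *Me1*). Over the whole table, 0 genes were called lower without AAV-CTRL 2, AAV-CTRL 3 or AAV-VEGF-C 2, and 8 without AAV-VEGF-C 3.

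*Gpx2*, the glutathione peroxidase of gut epithelium, was the gene of the wider list that rose, with 2, 2 and 2 counts in AAV-CTRL against 10, 22 and 15 in AAV-VEGF-C (fitted log2 change 5.78, SE 0.86, edgeR adjusted p = 0.0193). Its mean level was 0.704 TPM, in the range where many genes were called higher. The AAV-CTRL libraries were all under the floor of 3 counts, so the size of the change is not a bound, and the call was lost without AAV-CTRL 2, AAV-CTRL 3 or AAV-VEGF-C 2 (adjusted p = 0.0772, 0.0549 and 0.0543). Over the whole table, 0, 0 and 8 genes were called higher under those 3 settings.

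By group, the wider list held 26 other thiol oxidoreductases, of which 2 fell and 1 rose, and 8 tested genes of NADPH supply, of which 2 fell, beside the same 0.659% and 10.5% of all tested genes. None passed the edgeR test among the 22 tested glutathione genes, the 22 other genes of the NRF2 pathway (median log2 fold change -0.59, 18 of 22 below 0), the 6 genes of selenoprotein synthesis (-0.16) or the 11 tested sources of superoxide and peroxide (0.15, 4 of 11 below 0). *Cybb*, which encodes the catalytic subunit of the phagocyte oxidase, was among the last, at a fitted log2 change of -0.25 (SE 1.33). Of all tested genes 50.2% were below 0, and of those at a mean of 5 TPM or more 76.0% were. Of the 22 NRF2 pathway genes, 20 were at that level.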

How the data were processed

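RNA of sorted dural LECs was sequenced from 6 libraries made with a stranded total RNA kit for low input. The authors deposited tables of estimated counts per gene (from reads assigned to genes, not scaled between libraries) and of TPM values, the latter corrected for gene length and library total. The submitters' processing notes name FastQC, Trimmomatic, DRAGEN, Picard and the build mm10. Their versions and roles, and the use of strand in counting, are not given in the sources used here. Of 55401 identifiers, 98.1% matched GENCODE M21 (GRCm38) with their version.

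Estimated counts were rounded. Genes kept by filterByExpr were tested with edgeR 4.0.16 (R 4.3.3; TMM, quasi-likelihood, Benjamini-Hochberg over all tested genes, threshold 0.05). CPM uses TMM-scaled totals. Alternatives were DESeq2 1.42.0 (the study's tool), limma 3.58.1 on log2(TPM + 1) and log2(TPM + 0.1), voom with sample weights, other scalings and filters, a draw-down to 564430 counts, leaving out each library and a replicate block. Fits without experiment 1, and a block with the TPM filter, were chosen after seeing the data. Because the labels tie each number to a repeat of the experiment, the numbers were taken to pair the libraries. Deviations of same-numbered libraries correlated at 0.40, 0.34 and 0.14 across genes, and those of other pairs at -0.44 to 0.23. AAV-CTRL 3 with AAV-VEGF-C 2, at 0.23, lay above the pair of experiment 3, so the correlations do not single out that pair. Intervals are 95% Wilson intervals for counting error.

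Members and lists were chosen with earlier results of these data known. Genes named in full are those called, the 10 highest by mean TPM, the largest changes up to 5 in each direction, *Nfe2l2* and *Keap1*. The rest are given more briefly. 2 listed names were matched through older symbols, and 1 (*Nnt*) had 2 rows and was set aside. Near-identical copies were found by blastn 2.17.0 (at least 95% identity over 200 bases). Scripts were tested on simulated data.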

Additional observations from a re-analysis of the deposited data

How the results depend on the processing

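The groups held 3 libraries each, differed in depth, and low genes were limited by it. Per setting, the values are the members called lower and higher, the other pathway genes called lower and higher, and the median log2 fold change of the members, first reported as 1, 0, 4, 1 and -0.64. With the replicate block 2 members and 9 other genes were lower (362 of all 17459 tested genes), and no other count of calls changed by over 1.5 times. Library size alone gave 2 and 2 for the other genes, where 53 of 17459 tested genes were lower and 2054 higher. Scaling by the 2000 most abundant genes, which moved the median of all genes to 0.45, gave 0, 1, 0, 4 and -0.18. Of 17459 tested genes, 8 were lower and 2578 higher. No filter gave 8 members lower, 17 and 4 other genes, and -0.89. There 1175 of 44563 tested genes were lower and 9382 higher, and the median at a mean of 5 TPM or more was -0.62. Testing only genes at a mean of 5 TPM or more, which recomputes the scaling, gave 0 members, 0 and 0 other genes, and -0.30 (-0.33 with the block), and drawing down gave 0, 0, 0 and -0.24. Over the whole table, 0 genes were lower in these fits, and 9 (113 with the block) and 10 were higher. DESeq2 gave 4, 1, 7 and 4, where 501 of 44552 tested genes were lower and 5659 higher. limma gave 5, 11, 2 and -1.50 on log2(TPM + 1), and 1 and 2 other genes and -1.70 on log2(TPM + 0.1). In these 2 fits the medians of all tested genes at a mean of 5 TPM or more were -1.31 and -1.50. Of 17459 tested genes, 434 and 163 were lower and 1112 and 1281 higher. voom gave 3 members lower and 4 other genes higher, where 267 of 17459 tested genes were lower and 2380 higher. Without experiment 1, 2 members were lower, or 3 and 10 other genes with the block. Of 19222 tested genes, 110 were lower, or 451 with the block. Leaving out 1 library gave 0 to 1 members lower, 0 to 3 and 0 to 1 other genes, and -0.83 to -0.69. Over the whole table this gave 0 to 48 genes lower and 0 to 1771 higher. The cause was not tested where construction does not show it.

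Of the genes named in full, 6 changed sign, none of them called in any fit. *Gss* was -0.053 by library size, -0.21 with no filter, -0.049 by DESeq2, -0.57 and -0.90 by limma (TPM + 1, + 0.1), and -0.40 to 0.16 on leaving out a library. *Glrx* was -0.61 and -0.85 by limma, -0.29 without experiment 1 (-0.27 with the block), and -0.061 to 0.62 on leaving out a library. With the 2000 most abundant genes, *Prdx5*, *Sod1*, *Hmox1* and *Keap1* were 0.26, 0.27, 0.22 and 0.38. With the TPM filter *Prdx5*, *Sod1* and *Hmox1* were 0.14, 0.17 and 0.079, and 0.15 and 0.16 for *Prdx5* and *Sod1* with the block. Drawn down, *Prdx5*, *Sod1* and *Keap1* were 0.20, 0.056 and 0.26. *Hmox1* ran from -1.30 to 0.56 on leaving out a library.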
